A study of Mus musculus with 9 samples.

Results

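Retinoic acid signalling was followed in mouse embryonic stem cells through 9 genes of its receptors, its breakdown, its binding proteins and its uptake, taken by their symbols: Rara, Rarb, Rarg, Rxra, Rxrb, Cyp26a1, Crabp1, Crabp2 and Stra6. All 9 were found among the 38293 genes of the count table. RNA was sequenced from the mouse embryonic stem cell line E14, which comes from the 129/Ola strain, grown in 3 states with 3 labelled biological replicates each. The mESC-2i cells, labelled naive, were kept in N2B27 medium with LIF at 10 ng/mL, the MEK inhibitor PD0325901 at 1 µM and the GSK3 inhibitor CHIR99021 at 3 µM. Their sample titles, unlike those of the other groups, carry the tag LT, whose meaning the titles do not give. The mESC-ser cells, labelled primed, grew on gelatin in DMEM with 15% foetal bovine serum and LIF at 10 ng/mL. Epiblast-like cells (EpiLC) were derived from naive cells on fibronectin in N2B27 with activin A at 20 ng/mL, bFGF at 12 ng/mL and 1% KSR, a serum replacement. The groups therefore differ in the whole medium, and neither the retinoid content of the media nor the length of EpiLC induction was given in the sources used here. All the libraries come from 1 line, so their spread measures cultures and not lines or animals.

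Cells take up retinol, which is vitamin A, from its carrier in blood or medium and oxidise it to retinoic acid, which binds the retinoic acid receptors (RAR). These sit on DNA as pairs with the retinoid X receptors (RXR), at direct repeats of a short half-site, and switch target genes on when the ligand is bound. Retinoic acid is a strong trigger of differentiation in embryonic stem cells, and Rarb and Cyp26a1 are textbook examples of genes that it induces through such repeats.

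Depth ranged from 7187576 to 16829549 counts per library, and between replicates the counts differed by more than sampling noise in every pair. Markers were checked against the labels: the summed level of 6 naive pluripotency genes, in CPM, counts scaled to a common library size, was 2872 to 2916 in mESC-2i, 1535 to 1579 for mESC-ser and 89.3 to 102 for EpiLC, and that of 5 formative genes was 82.6 to 93.6, 780 to 910 and 2147 to 2239. The mESC-ser cells, though labelled primed, thus lay between the other groups in both sums. Zfp42 of the naive list did not follow this order, at 293, 353 and 11.8 CPM on average in mESC-2i, mESC-ser and EpiLC. Prdm14 of the naive list in EpiLC, and Fgf5 of the formative list in mESC-2i, had at most 3 counts in every library. These are bulk samples, so fewer cells of a type and less RNA per cell cannot be told apart. A gene was called where its adjusted p in edgeR's quasi-likelihood test was under 0.05 and its log2 fold change was beyond 0.5 in size. The 3 comparisons share libraries, each group entering 2 of them. Of all tested genes, 70.7% had no overlap of libraries between mESC-ser and mESC-2i, 81.8% between EpiLC and mESC-2i, and 85.7% between EpiLC and mESC-ser. A lack of overlap, where given below, is thus common and only describes the gene.

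**Figure D1:**
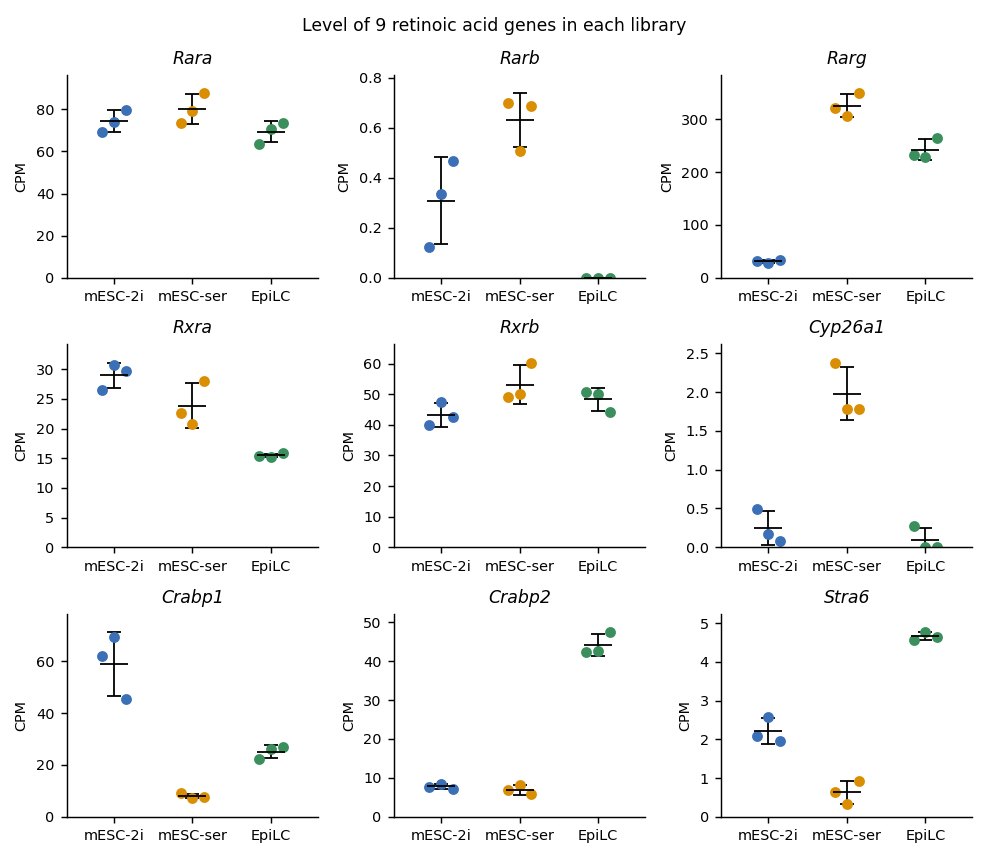
Level of each of the 9 genes in every library, in CPM (counts scaled to a common library size) on a linear axis from 0, by group. Dots are libraries, and the black bar and whiskers are the group mean and SD of 3 libraries. Rarg sits near 30 CPM in mESC-2i and above 200 in both other groups, Crabp2 and Stra6 are highest in EpiLC, Crabp1 is highest in mESC-2i, and Rarb and Cyp26a1 stay low, with their highest values in mESC-ser.

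Of the 4 tested receptor genes among the members, Rarg had the largest log2 difference from mESC-2i in both other groups. Rarg (chr15:102234938-102257517, minus strand, GRCm38 as are all positions), which encodes RARγ, a receptor known from early embryonic and stem cells, had 31.6, 28.7 and 34.3 CPM in the mESC-2i libraries, 322, 305 and 350 for mESC-ser, and 232, 229 and 265 for EpiLC. No mESC-2i library came near either other group, and every EpiLC library lay under every mESC-ser library. Rarg rose in mESC-ser against mESC-2i with a log2 fold change of 3.31 (SE 0.12), which is 9.92-fold, with an edgeR adjusted p of 1.8e-08. In EpiLC it rose by 2.92 (SE 0.11) against mESC-2i, 7.57-fold, with an adjusted p of 6.57e-09. Between EpiLC and mESC-ser the log2 difference was -0.34 (SE 0.08, adjusted p = 0.00129), which passed the p threshold but not the size threshold, so it was not called. Scaled to total counts alone it was -0.68 and was called, on a scale where the median of all genes stood at -0.41.

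Rara (chr11:98927818-98974942, plus strand), which encodes RARα, the most widely expressed of the receptors, was level. Its 9 libraries ran from 63.8 to 87.8 CPM, and all 3 groups overlapped. The log2 differences were 0.05 (SE 0.11) for mESC-ser and -0.12 (SE 0.10) for EpiLC against mESC-2i, and -0.13 (SE 0.09) between EpiLC and mESC-ser, with adjusted p of 0.695, 0.268 and 0.206. No difference in Rara was detected, and the SEs leave room for small changes.

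Rarb (chr14:16430839-16819156, minus strand), which encodes RARβ and is itself induced by retinoic acid, was close to the limit of detection. The mESC-2i libraries held 1, 4 and 6 counts, the mESC-ser libraries 10, 6 and 12, and the EpiLC libraries 0, 0 and 0. Rarb did not pass the filter on low counts in any comparison, so it was not among the tested genes. Over the group sums and with the libraries' effective sizes, mESC-ser stood 1.93-fold above mESC-2i with a 95% exact counting interval of 0.931 to 4.29, which includes no difference. Against EpiLC, with a floor of 3 counts set over that group, Rarb was 2.74-fold higher in mESC-2i and 5.29-fold higher in mESC-ser. These ratios to the floor take the counts of the stem cell groups as exact, so they are not lower bounds. The interval and the floor cover no more than counting error, since the reads carry no molecular identifiers. Without the filter, edgeR called Rarb lower in EpiLC than in mESC-2i (adjusted p = 0.0103) and than in mESC-ser (adjusted p = 1.68e-05), and not between the stem cell states (adjusted p = 0.183). Of its 5265 exonic bases, 2020 lie opposite exons of Top2b and Gm48162, and since the library kit does not mark strand and the strand setting of the counting was not given in the sources used here, reads of Rarb and of those genes cannot be told apart.

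The promoters of Rarb and Cyp26a1 are shown because both genes are known to carry a retinoic acid response element and both had their highest counts in mESC-ser. In RefSeq promoter windows of 300 bases (250 before and 50 after the start, GRCm38.p6), direct repeats were searched on both strands as GGTCA or GTTCA followed, after 2, 3 or 6 bases, by another copy of either, which are half-sites with spacings of 1, 2 and 5. Windows were given for 8 of the 9 genes, 17 in all, and not for Crabp2. A match was found in 2 of them, 1 of Rarb and 1 of Cyp26a1, both with spacing 5. Among 32851 promoters of that length, 0.247% held the spacing of 5, 0.402% the spacing of 1 and 0.399% the spacing of 2, and 1.05% held any, with no window holding more than 1 kind. The 120 bases before each start are printed with the match in capitals. The Rarb window lies at chr14:16575477-16575596 on the minus strand, inside the span of the gene, and the Cyp26a1 window at chr19:37697688-37697807 on the plus strand.
Rarb: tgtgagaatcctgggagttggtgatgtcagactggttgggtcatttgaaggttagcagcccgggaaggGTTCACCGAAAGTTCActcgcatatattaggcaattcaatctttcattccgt
Cyp26a1: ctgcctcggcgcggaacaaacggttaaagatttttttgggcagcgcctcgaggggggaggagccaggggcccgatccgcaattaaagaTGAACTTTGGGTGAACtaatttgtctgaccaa

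In Rarb the match lay 52 to 37 bases before the start and read in the direction of the gene, and in Cyp26a1 it lay 32 to 17 bases before the start and read against it. Each is given below 5′ to 3′ along its own strand, because the sequences are nearly the same.
Rarb match: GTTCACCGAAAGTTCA
Cyp26a1 match: GTTCACCCAAAGTTCA
They were identical at 15 of 16 positions and differed by G8C, from Rarb to Cyp26a1, counted from 1 at the 5′ end. The reference is the genome of another mouse strain than E14, and a match is a description of letters and not of binding. The other 6 genes with windows had no match in them, which says only that these letters are not in those windows.

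As a share of the summed level of Rara, Rarb and Rarg per kilobase (RPKM), Rarg made up 28.3 to 31.8% of the receptor transcripts in mESC-2i, 79.7 to 81.6% for mESC-ser and 76.8 to 78.8% for EpiLC. Rara made up 69.6% on average in mESC-2i and 19.4% and 21.9% in the other groups. The lead thus passed from Rara in mESC-2i to Rarg in mESC-ser and EpiLC, with no overlap between mESC-2i and either. The summed RAR level was 24.5 ± 1.69 RPKM (SD, n = 3) in mESC-2i, 94.9 ± 6.51 for mESC-ser and 72.6 ± 5.49 for EpiLC. Within the sum, Rara itself stood at 17.1 ± 1.22, 18.4 ± 1.64 and 15.9 ± 1.15 RPKM, while Rarg stood at 7.40 ± 0.66, 76.4 ± 5.24 and 56.8 ± 4.66.

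**Figure D2:**
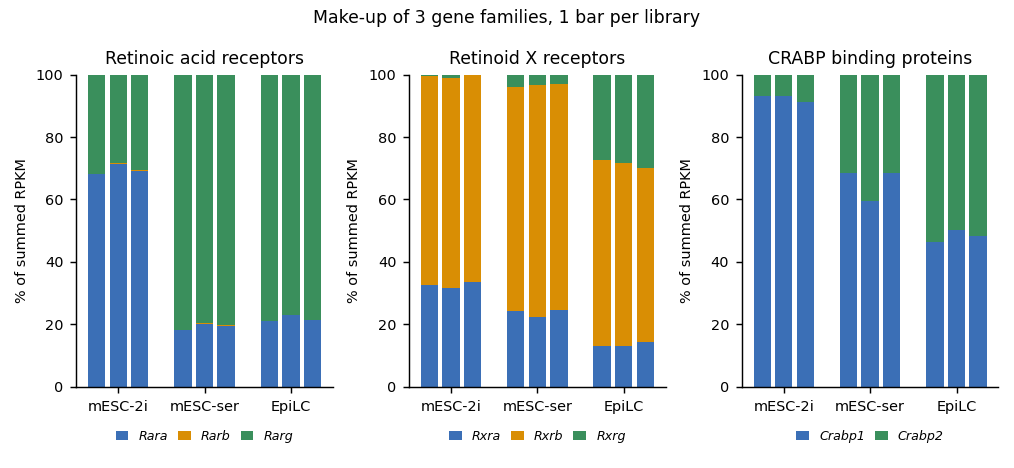
Share of each gene in the summed RPKM of its family, in percent, with 1 bar per library and 3 libraries per group. Rarg takes 28.3 to 31.8% of the retinoic acid receptor sum in mESC-2i and at least 76.8% in each mESC-ser and EpiLC library, Rxrg reaches 27.5 to 30.1% of the retinoid X receptor sum in EpiLC, and Crabp1 drops from above 91% of the CRABP sum in mESC-2i to about even with Crabp2 in EpiLC.

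Of the retinoid X receptors, the partners of the RARs, Rxra and Rxrb are members. Rxra (chr2:27676440-27762957, plus strand), which encodes RXRα, had 26.5, 30.7 and 29.7 CPM in mESC-2i, 22.7, 20.8 and 28.1 for mESC-ser, and 15.3, 15.3 and 15.8 for EpiLC. EpiLC lay under every library of both other groups, and these overlapped each other. Rxra fell in EpiLC by 0.92 on the log2 scale against mESC-2i (SE 0.11, edgeR adjusted p = 2.22e-05). Against mESC-ser it fell by 0.55 (SE 0.12, adjusted p = 0.000685), a call that was lost with offsets for gene length and GC content, where the difference was -0.38, and without mESC-ser replicate 3, where it was -0.41. With total counts alone it was -0.89. Between the stem cell states the difference of -0.34 (SE 0.13, adjusted p = 0.0463) was under the size threshold.

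Rxrb (chr17:34031812-34038399, plus strand), which encodes RXRβ, was not called in any comparison. Its libraries held 39.8, 47.4 and 42.5 CPM in mESC-2i, 49.0, 50.1 and 60.3 for mESC-ser, and 50.7, 50.1 and 44.1 for EpiLC. The mESC-ser libraries all lay above those of mESC-2i, but by a log2 difference of only 0.24 (SE 0.12, adjusted p = 0.0933). Against EpiLC the differences were 0.14 from mESC-2i and -0.05 from mESC-ser, with adjusted p of 0.235 and 0.613, and their signs turned under other scalings or without single libraries.

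Rxrg, the third retinoid X receptor and no member of the 9, is given because it changed the make-up of the family. Its libraries held 1, 6 and 1 counts in mESC-2i, 22, 15 and 26 for mESC-ser and 101, 129 and 110 for EpiLC, with no overlap between groups. Rxrg rose in EpiLC by 5.74 (SE 0.33, edgeR adjusted p = 1.13e-07) against mESC-2i and by 3.33 (SE 0.17, adjusted p = 1.42e-11) against mESC-ser. Against mESC-2i it passed the filter only through the EpiLC libraries, where it was high. It thus had to differ there, and that call says no more than the counts. In RPKM Rxrg made up 0.598% of the RXR sum on average in mESC-2i, 3.42% for mESC-ser and 28.6% for EpiLC, where Rxra took 13.5%. The RXR sum itself was 16.3 ± 1.43, 18.4 ± 2.26 and 20.998 ± 0.85 RPKM.

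Cyp26a1 (chr19:37697798-37701536, plus strand), the enzyme that breaks retinoic acid down and a direct target of it, had most of its counts in mESC-ser. The mESC-ser libraries held 34, 21 and 31 counts, against 4, 2 and 1 in mESC-2i and 2, 0 and 0 in EpiLC. Every mESC-ser library lay above every other one, and mESC-2i and EpiLC overlapped. The level in mESC-ser was still low, at 1.98 ± 0.35 CPM. It rose in mESC-ser against mESC-2i by 3.10 on the log2 scale (SE 0.46, edgeR adjusted p = 0.00019), with a ratio of the group sums of 9.31 and a 95% counting interval of 4.33 to 23.9. The log2 difference was 3.89 without mESC-2i replicate 1. In EpiLC it fell against mESC-ser (adjusted p = 5.29e-06), and the ratio of mESC-ser to EpiLC, resting on 2 counts in EpiLC, was 24.4 with an interval of 6.54 to 204. Both EpiLC counts came from replicate 1, so without it EpiLC stood at 0, and the call there (adjusted p = 1.43e-05) adds nothing. In both comparisons Cyp26a1 passed the filter only through the mESC-ser libraries, where it was high. It thus had to differ, and those calls say no more than the counts. The comparison of EpiLC with mESC-2i did not pass the filter, and its ratio of 0.382, from 2 and 7 counts, had an interval of 0.0388 to 2.01, so a difference was not detectable at this depth.

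The cellular retinoic acid binding proteins differed from each other in their course. Crabp1 (chr9:54764748-54773110, plus strand), which is thought to hold retinoic acid in the cytoplasm and pass it to the enzymes that degrade it, had 61.9, 69.5 and 45.4 CPM in mESC-2i, 9.03, 7.38 and 7.52 for mESC-ser, and 22.3, 26.0 and 26.9 for EpiLC. None of the groups overlapped, and the order was mESC-2i over EpiLC over mESC-ser. Crabp1 fell in mESC-ser by 2.94 (SE 0.18, edgeR adjusted p = 3.33e-07) against mESC-2i, and EpiLC lay lower than mESC-2i by a log2 difference of -1.25 (SE 0.16, adjusted p = 3.21e-05). Against mESC-ser it rose in EpiLC by 1.74 (SE 0.13, adjusted p = 1.41e-09). At 802 exonic bases Crabp1 is the shortest of the 9, and log2 fold changes correlated with gene length across protein-coding genes in every comparison (Spearman 0.280, -0.300 and -0.498, in the order just given, across genes that are not independent replicates). With offsets for length and GC content the difference between EpiLC and mESC-ser was 0.66 (adjusted p = 8.19e-05) and that between EpiLC and mESC-2i -1.89 (adjusted p = 6.26e-08). Both were still called, and the part of length in them was not tested.

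Crabp2 (chr3:87948666-87953376, plus strand), which carries retinoic acid into the nucleus to the receptors, was low in both stem cell states and high in EpiLC. It had 7.61, 8.50 and 7.25 CPM in mESC-2i, 6.86, 8.23 and 5.74 for mESC-ser, and 42.3, 42.7 and 47.5 for EpiLC. The stem cell states overlapped, and every EpiLC library stood far above them. Crabp2 rose in EpiLC by 2.48 (SE 0.12) against mESC-2i, 5.59-fold, and by 2.77 (SE 0.13) against mESC-ser, 6.84-fold, with edgeR adjusted p of 3.32e-08 and 3.54e-12. The log2 difference of -0.23 (SE 0.17, adjusted p = 0.255) between the stem cell states was not called and turned to 0.17 with offsets for length and GC content, with which the rise in EpiLC against mESC-ser was 2.17.

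Per length, Crabp1 made up 92.4% of the summed Crabp1 and Crabp2 RPKM on average in mESC-2i, 65.5% for mESC-ser and 48.3% for EpiLC. The library ranges of that share, 91.2 to 93.1%, 59.7 to 68.5% and 46.5 to 50.1%, did not overlap. The sum was 79.4 ± 15.8 RPKM in mESC-2i, 15.2 ± 1.38 for mESC-ser and 64.7 ± 4.84 for EpiLC. The lowest sum thus stood in the group with the highest RAR sum.

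Stra6 (chr9:58063788-58153996, plus strand), the membrane receptor that lets retinol into cells, had 2.09, 2.59 and 1.95 CPM in mESC-2i, 0.630, 0.339 and 0.919 for mESC-ser, and 4.56, 4.77 and 4.65 for EpiLC. The 3 groups did not overlap, with EpiLC over mESC-2i over mESC-ser. Stra6 fell in mESC-ser by 1.79 (SE 0.33, edgeR adjusted p = 0.00079) and rose in EpiLC by 1.06 (SE 0.21, adjusted p = 0.000809), both against mESC-2i, and it rose by 2.88 (SE 0.27, adjusted p = 4.3e-08) from mESC-ser to EpiLC. The counts behind these values were small, from 4 to 44 per library. In mESC-ser they were 9, 4 and 16. Against either other group, Stra6 thus passed the filter only through that other group, where it was high. Those calls with mESC-ser say no more than the counts.

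Taken by comparison, 8 of the 9 genes were tested between mESC-ser and mESC-2i, and 4 were called. Rarg and Cyp26a1 were higher and Crabp1 and Stra6 lower, where 56.2% of the 15728 genes tested were called, 25.9% higher and 30.3% lower. Between EpiLC and mESC-2i, 5 of 7 tested genes were called, with Rarg, Crabp2 and Stra6 higher and Rxra and Crabp1 lower, where 69.8% of 15378 genes were called, 32.0% higher and 37.8% lower. Between EpiLC and mESC-ser, 5 of 8 were called, with Crabp1, Crabp2 and Stra6 higher and Rxra and Cyp26a1 lower, where 73.3% of 15345 genes were called, 35.5% higher and 37.8% lower. The members' shares were near or under these backgrounds, so the number of calls is no result about them. The median log2 difference of the tested members was -0.09, 0.14 and -0.09, beside -0.04, -0.11 and -0.07 over all genes. Cyp26a1 entered the tests through the mESC-ser libraries, where it was high, and Stra6 entered those with mESC-ser through the other group.

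**Figure D3:**
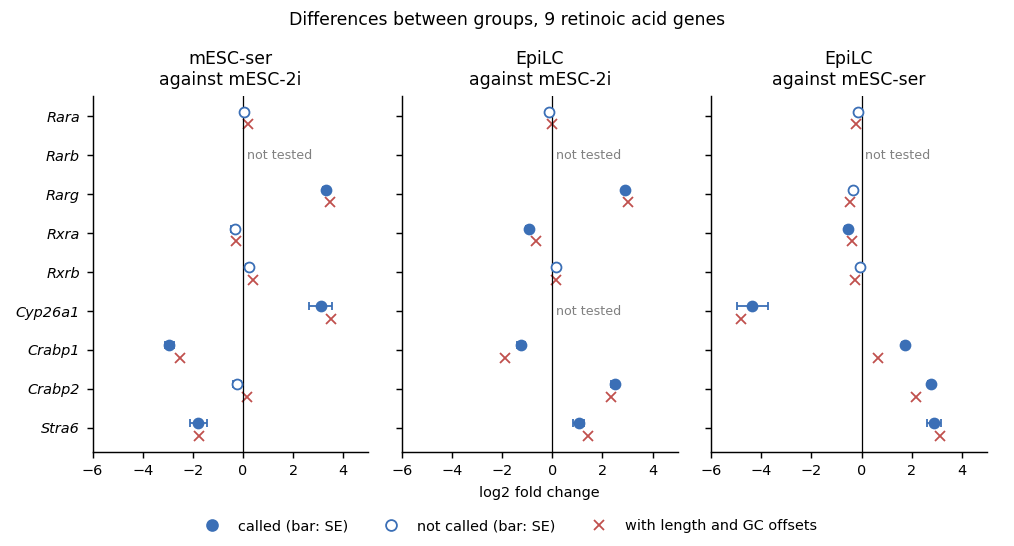
Log2 fold change of each of the 9 genes in the 3 comparisons, with the SE as bar; filled dots were called (adjusted p under 0.05 and size beyond 0.5) and open dots were not, and crosses give the value with offsets for gene length and GC content. Rarg stands near 3 in both comparisons with mESC-2i, Cyp26a1 has the widest SE, and the cross lies farthest from the dot for Crabp1 in EpiLC against mESC-ser, at 0.66 beside 1.74.

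Only Crabp1 and Stra6 were called in all 3 comparisons, and the genes closest to them in pattern were sought among 11997 genes by the Euclidean distance of centred log2 CPM over the 9 libraries. Nearest to Crabp1 were Npc2 at a distance of 0.592 and Oaf at 0.597, with Npc2 at 454, 53.2 and 163 CPM on average in mESC-2i, mESC-ser and EpiLC. Nearest to Stra6 were Smim1 at 0.629 and Rps6kl1 at 0.703, with Rps6kl1 at 20.0, 5.06 and 40.7 CPM. These are descriptions over libraries that share their groups.

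Around the receptors, 22 genes of retinoid transport and metabolism were followed, of which 10, 13 and 12 passed the filter in the comparisons of mESC-ser with mESC-2i, EpiLC with mESC-2i and EpiLC with mESC-ser. In mESC-ser 1 was higher than in mESC-2i and 7 were lower, with a list median of -0.87, beside 25.9% of all tested genes higher and 30.3% lower. The higher one was Rdh10, which makes retinaldehyde from retinol, with a log2 fold change of 1.47 (SE 0.15). Lower were both tested retinaldehyde dehydrogenases, the enzymes that make retinoic acid itself: Aldh1a3 fell by 3.43 (SE 0.22) and Aldh1a2 by 1.66 (SE 0.21). In EpiLC against mESC-2i 5 were higher and 1 lower, with a median of 0.20, beside 32.0% and 37.8% of all genes. That split depended on the processing: total counts gave 5 higher and 4 lower with a median of -0.14, offsets for length and GC content 7 and 2 with 0.66, and the fit without mESC-2i replicate 1 gave 5 and 3. Fabp5, a lipid binding protein that can also carry retinoic acid, rose by 1.32 (SE 0.15), and Aldh1a2 was the 1 that fell, by 3.13 (SE 0.32). With 3, 5 and 10 counts in EpiLC, Aldh1a2 passed the filter of that comparison only through mESC-2i, where it was high. Rbp4 and Rbp7, called higher, passed it only through EpiLC. Those calls say no more than the counts. In EpiLC against mESC-ser 9 were higher and 2 lower, with a median of 1.13, beside 35.5% and 37.8% of all genes. Of these, Rbp4, Rbp7 and Stra6l, called higher, passed the filter only through EpiLC, and Aldh1a2, called lower, only through mESC-ser. They had to differ, and the count and median rest in part on them. With at least 10 counts in each library, 5 of 8 were higher and 1 lower in that comparison, with a median of 0.80. Aldh1a3 rose there by 3.02 (SE 0.23) while Rdh10 fell by 1.15 (SE 0.16). The Aldh1a3 libraries held 13.0, 14.3 and 12.9 CPM in mESC-2i, 1.40, 1.70 and 0.86 for mESC-ser, and 11.7, 9.44 and 8.42 for EpiLC.

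Mean levels of Aldh1a2 stepped down, at 6.44 ± 0.79 CPM in mESC-2i, 2.14 ± 0.43 for mESC-ser and 0.734 ± 0.46 for EpiLC. The tested genes that make retinoic acid from retinaldehyde were thus at their lowest in different groups, Aldh1a3 in mESC-ser and Aldh1a2 in EpiLC. Each value is a level of RNA, and retinoic acid itself was not measured.

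Of 22 genes known to be induced by retinoic acid, many of them Hox genes that pattern the body axis, 21 were in the table and Hoxd4 was not analysed here. Between mESC-ser and mESC-2i, 1 of 15 tested genes was higher and 9 were lower, with a median of -1.33, where 25.9% of all genes were higher and 30.3% lower. With at least 10 counts in each library it was 1 higher and 4 lower of 9, with a median of -0.17. Genes such as Hoxa3, Hoxb2 and Hoxb4, called lower, passed the filter only through the mESC-2i libraries, where they were high. The first count and its median thus rest in part on genes that had to differ. Gbx2, a homeobox gene of naive cells and the early neural plate, rose by 0.87 (SE 0.11), while Cdx1, a homeobox gene that answers to both retinoic acid and Wnt, fell by 4.34 (SE 0.21). In EpiLC 13 of 15 were lower than in mESC-2i and 1 was higher, and against mESC-ser 7 of 9 were lower and 1 higher, where 37.8% of all genes were lower in each comparison and 32.0% and 35.5% higher. Genes of this list near 0 in EpiLC passed the filter only through the stem cell libraries of the comparison, where they were high, so they had to differ, and neither these counts nor a median over them says more than the single levels. With at least 10 counts in each library, 4 genes were left in each comparison, with 1 higher and 2 lower in both and medians of -0.84 and -1.36. The gene that was higher in EpiLC in both comparisons was Dhrs3, a retinaldehyde reductase, named after its values were seen, at 0.92 (SE 0.22) and 1.05 (SE 0.23). Dhrs3 also stands in the metabolism list and is already counted there among the genes higher in EpiLC.

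Several of these targets were next to absent in EpiLC. Cdx1 went from 369, 713 and 511 counts in mESC-2i through 37, 21 and 50 in mESC-ser to 0, 2 and 0 in EpiLC, a ratio of mESC-2i to EpiLC of 595 with a counting interval of 164 to 4918. Meis1, a homeobox partner of Hox proteins, held 44 to 99 counts in the stem cell libraries and 0, 2 and 1 in EpiLC. Markers of other lineages also differed between the groups, in different orders. The summed level of 6 mesendoderm genes was 87.7 to 109 CPM in mESC-2i, 5.60 to 6.72 for mESC-ser and 5.78 to 7.65 for EpiLC, with Mesp1 at 3 counts or fewer in every library and Lhx1 in every EpiLC library, but most of it in both stem cell states was brachyury (T), at 85.5, 4.38 and 1.35 CPM on average. Mixl1 (0.918, 0.430 and 1.91 CPM) and Tbx6 (1.03, 0.807 and 2.603 CPM) had their highest means in EpiLC. That of 7 neural genes was 194 to 216, 189 to 201 and 64.0 to 66.1 CPM, with Neurog2 at 3 counts or fewer in mESC-ser and EpiLC and Pax3 in EpiLC, while Pax6 was highest in mESC-ser, at 1.69, 25.2 and 0.464 CPM. The 9 primitive endoderm genes summed to 240 to 316, 231 to 276 and 24.0 to 27.9 CPM, with Sox7 and Pdgfra at 3 counts or fewer in EpiLC. Lama1 was the largest part in both stem cell states, at 215, 120 and 3.27 CPM on average. Lama1, Gata4 and Foxa2 had their highest means in mESC-2i, but Gata6, Sox17, Sox7, Pdgfra, Dab2 and Col4a1 in mESC-ser. The 7 trophectoderm genes summed to 72.7 to 95.1, 213 to 231 and 89.0 to 90.2 CPM, with Elf5 at 3 counts or fewer in every library and Gata3 in EpiLC. Most of the mESC-ser sum was Krt8 (34.3, 106 and 14.9 CPM on average) and Krt18 (11.1, 95.9 and 57.8 CPM). Gata3 was also highest in mESC-ser, but Cdx2 (15.5, 2.44 and 0.279 CPM) and Eomes (15.6, 8.65 and 9.80 CPM) were highest in mESC-2i, and Krt7 in EpiLC. The 7 fibroblast genes summed to 47.6 to 53.0, 108 to 123 and 36.8 to 44.0 CPM, with Lum at 3 counts or fewer in every library and Postn in EpiLC. Most of the EpiLC sum was Thy1, at 3.05, 4.41 and 29.5 CPM on average. Col1a1, Col1a2 and Acta2 had their highest means in mESC-ser, and Col3a1 and Postn in mESC-2i. The part of such cells in the receptor and target levels was not tested.

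The 14 coregulators, the proteins through which the receptors repress or activate, were all tested. Between mESC-ser and mESC-2i 8 were higher and 1 lower, with Ep300 up by 1.89 (SE 0.18), Ncoa3 by 1.79 (SE 0.14) and Crebbp by 1.70 (SE 0.21), all coactivators, and Gps2, a subunit of a corepressor complex, lower by a log2 difference of -0.63 (SE 0.13). In EpiLC 2 were higher and 8 lower than in mESC-2i, and 2 higher and 11 lower than in mESC-ser. The shares over all genes in the 3 comparisons were 25.9% higher and 30.3% lower, 32.0% and 37.8%, and 35.5% and 37.8%. Crebbp fell by 3.08 (SE 0.31) in the first of those comparisons and fell by 4.73 (SE 0.16) in the second, and Carm1, a coactivator arginine methyltransferase, rose by 1.32 (SE 0.10) and 0.79 (SE 0.08). The list medians were 0.56, -0.74 and -1.45. These are long genes, with a median of 8828 exonic bases beside 4426 for all protein-coding genes tested, and with offsets for length and GC content the medians were 0.28, 0.01 and -0.34 and the calls were 5 higher and 0 lower, 2 higher and 4 lower, and 3 higher and 6 lower. Crebbp was still called in every comparison there, with differences of 1.42, -2.18 and -3.60.

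Among 17 receptors that pair with RXR or are related to these families, 12, 10 and 12 were tested. In mESC-ser 6 were higher and 3 lower than in mESC-2i, in EpiLC 2 were higher and 6 lower than in mESC-2i, and in EpiLC 3 were higher and 7 lower than in mESC-ser, with medians of 0.48, -0.74 and -0.72, beside the same shares over all genes. With offsets for length and GC content the calls were 6 higher and 2 lower, 2 and 5, and 3 and 4, and the medians 0.62, -0.27 and -0.05. Nr6a1, an orphan receptor that represses pluripotency genes, rose by 2.64 (SE 0.13) in mESC-ser and by 1.85 (SE 0.11) in EpiLC against mESC-2i. Nr5a2 and Nr0b1, receptors of the naive network, were lowest in EpiLC. There Nr5a2 fell by 6.18 (SE 0.20) against mESC-2i and by 6.21 (SE 0.18) against mESC-ser. Nr5a2 held 4, 5 and 9 counts in EpiLC and passed the filter only through the stem cell libraries. Its calls thus say no more than the counts. Nr0b1 fell by 2.40 (SE 0.15) and fell by 3.33 (SE 0.10) in the same order. Thra, a thyroid hormone receptor, fell in mESC-ser by 1.46 (SE 0.15), and some of its exons lie opposite another gene, as do those of Gbx2, Meis1, Carm1 and Ncoa3, so that strand cannot be told apart for them either. The edgeR adjusted p of the changes named in these lists ran up to 0.00304, that of Dhrs3 in EpiLC against mESC-2i.

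**Figure D4:**
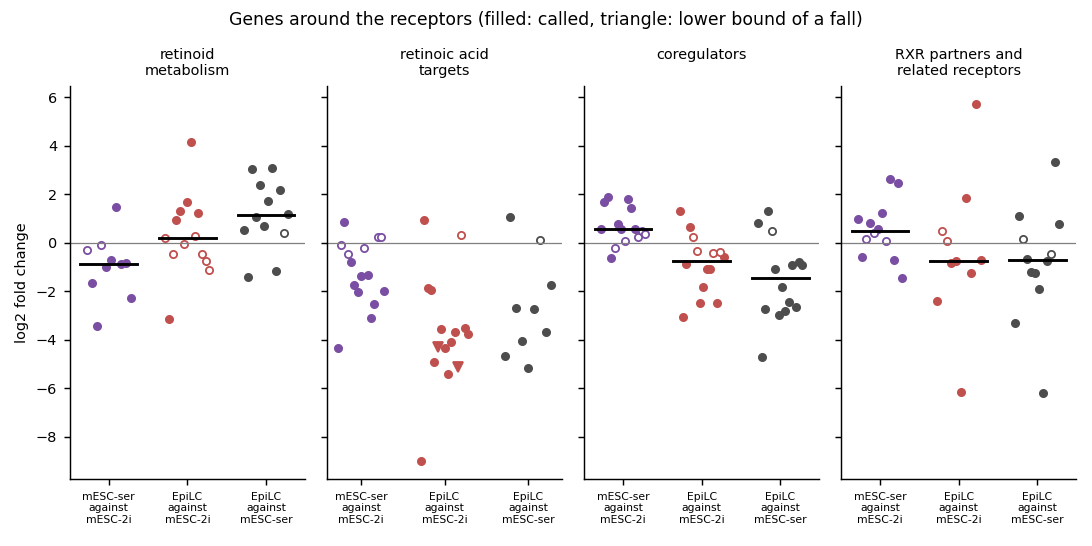
Log2 fold changes of the tested genes of 4 lists in the 3 comparisons. Filled dots were called and open dots were not. Triangles are genes without counts in EpiLC, drawn with a floor of 3 counts there and the counts of the other group taken as exact. The title calls them lower bounds, but counting error in the other group is left out, so they are not strict bounds. Black lines are list medians, not drawn for the target list, whose low genes entered through the group where they were high. Cdx1 is the lowest dot of that list in EpiLC against mESC-2i, and the highest dot of the receptor list in both EpiLC comparisons is Rxrg, at 5.74 and 3.33.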

How the data were processed

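Polyadenylated RNA of 9 libraries of the line E14 was prepared by the authors with a kit that does not mark strand and sequenced as single-end reads. Per the submitters' processing notes and methods, reads were trimmed with Trim Galore 0.6.6, aligned to mm10 with HISAT2 2.2.1 and counted per gene with featureCounts of Subread 2.0.1. Which annotation release and strand setting were used, and how reads with several matches were treated, was not given in the sources used here. The deposited values were raw counts per Ensembl gene, of which 36429 of 38293 (95.1%) matched a symbol in GENCODE M21 (GRCm38), which also gave positions, lengths and overlaps. Columns were matched to samples by name, the serum columns by their initials.

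Members and gene lists were chosen with earlier results of these data known. Each pair of groups (6 libraries) was fitted with edgeR 4.0.16 (R 4.3.3) by the quasi-likelihood F-test after filterByExpr and TMM scaling, with Benjamini-Hochberg adjustment over all genes tested. A call needed an adjusted p under 0.05 and a log2 fold change beyond 0.5. SE is the log2 fold change divided by the root of F. Levels are CPM, scaled by TMM over all 9 libraries, and RPKM with exonic length. The p-values measure the spread between labelled biological replicates. Of each list, up to 3 called genes with the largest rise and 3 with the largest fall per comparison, and at least 50 counts on average in the higher of both groups, could be named, and for members called in all 3 comparisons the 2 nearest genes in pattern. Not every gene that this rule selects is reported here. The script was tested on simulated data.

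Alternatives were RLE or total-count scaling, DESeq2 1.42.0, no filter, at least 10 counts in each library, all 9 libraries in 1 fit, offsets for length and GC content, a replicate block, a log2 threshold of 1, and leaving out each library. Same-numbered libraries of mESC-ser and mESC-2i deviated together (r = 0.127, 0.18 and 0.34 for replicates 1, 2 and 3), so the replicate block was run as an alternative. But mESC-ser replicate 1 went as much with mESC-2i replicate 2 (r = 0.144). These values therefore do not settle that replicates 1 and 2 are paired, and no label says what the numbering stands for. Same-numbered libraries of EpiLC deviated together only weakly with either stem cell state (r of 0.109 or less). Each such pair still stood above the differently numbered pairs of its comparison, so pairing is not settled there either.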

Additional observations from a re-analysis of the deposited data

How the results depend on the processing

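With the replicate block, 4 members were called between the stem cell states, 5 between EpiLC and mESC-2i and 5 between EpiLC and mESC-ser, as without it. In the other lists the block changed only the calls of Nr1h2 (0.51) and Stra6l (-0.998), both gained in EpiLC against mESC-2i. There the same-numbered libraries deviated together only weakly (r = 0.0221, 0.109 and 0.109, and 0.0183, 0.017 and 0.0339 for EpiLC with mESC-ser). These values do not settle whether the EpiLC libraries are paired with the others. Of 364 member values under 19 alternatives, 352 kept their direction and side of the threshold. The filter of at least 10 counts in each library, which removes low genes, left 2 members called between the stem cell states and 3 between EpiLC and mESC-ser, 6 metabolism genes in EpiLC against mESC-ser, and 5, 3 and 3 target genes in the comparisons in that order. With no filter, or with all 9 libraries in 1 fit, 13 target genes were called in EpiLC against mESC-ser. A log2 threshold of 1 left 4 metabolism genes, 4 coregulators, 4 RXR partners and 4935 of all genes in mESC-ser against mESC-2i and 5 RXR partners in EpiLC against mESC-2i. Offsets for length and GC content, with or without the block, left 5 coregulators between the stem cell states and 6 between EpiLC and mESC-2i. Values that turned were Crabp2 in mESC-ser against mESC-2i (0.17 with the offsets, and 0.17 with the block added), Rxrb in EpiLC against mESC-2i (-0.20 with total counts), Rara in mESC-ser against mESC-2i (from -0.0081 without mESC-ser replicate 3 to 0.14 without mESC-ser replicate 1 when single libraries were left out), and Rxrb in EpiLC against mESC-ser (0.014 without EpiLC replicate 3, and from -0.12 without mESC-ser replicate 1 to 0.049 without mESC-ser replicate 3), none of them called. The cause was not tested. Total counts moved the median of all genes to -0.09, -0.45 and -0.41 and the share of higher genes among calls from 46.1, 45.9 and 48.4% to 43.5, 33.7 and 37.4%, and the offsets moved it to 50.5, 55.8 and 56.0%. Counts near or under 10 per library limit what can be said of Rarb, of Cyp26a1 and, in mESC-ser, of Stra6.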
